A study of Mus musculus with 9 samples.

Results

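The response of the Trex1-/- kidney to SN-011, an antagonist of the adaptor STING, was examined by RNA sequencing in 6 of the 9 libraries of the series, namely 3 from Trex1-/- mice given SN-011 and 3 from Trex1-/- mice given the vehicle (called PBS here). These libraries were chosen by their sample titles, and every gene with enough reads was tested. Both groups carried the same loss of Trex1 in all cells, obtained by mating heterozygous parents on a C57BL/6J background, and received daily intraperitoneal injections for 2 weeks from 1 month of age. SN-011 was given at 10 mg/kg in PBS with 1% Tween 80. The remaining 3 libraries came from kidneys of wild-type C57BL/6J mice, whose treatment and age at collection are not given in the sources used here. They give a reference level, and they also entered the fit, with its filter, scaling and estimate of the spread. The labels do not say that each library came from a separate mouse, so the p-values measure the spread between these libraries. Whole kidney was sequenced, and fewer cells of a type and less RNA per cell cannot be told apart.

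TREX1 is a cytosolic exonuclease that degrades self DNA. Where it is missing, DNA can engage the sensor cGAS, whose product cGAMP activates STING. STING then recruits the kinase TBK1, which activates the transcription factor IRF3, and type I interferon follows. Secreted interferon signals through its receptor to the interferon-stimulated response element in the promoters of antiviral effectors. SN-011 binds the cGAMP pocket of STING and holds the protein inactive. Other programs of the kidney answer to other signals: misfolded protein in the cytosol calls on heat shock factors and chaperones, misfolded protein in the endoplasmic reticulum on the XBP1, ATF6 and PERK branches, and the clock, glucocorticoids and sex hormones shape the expression of tubular transporters and enzymes.

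The 6 libraries held 16118813 to 18648402 assigned read pairs each, and the wild-type libraries 17671263 to 21928965. Reads of Y-linked genes lay between 162 and 176 CPM (read counts scaled to library size) in the 3 PBS libraries and at 188 CPM in SN-011 replicate 2, but SN-011 replicates 1 and 3 had 0.120 and 0 CPM. Xist, the RNA of the inactive X chromosome, stood at 434 and 455 CPM in SN-011 replicates 1 and 3, and at no more than 0.291 CPM in the other 4 libraries. Among the wild-type libraries, replicates 1 and 2 resembled SN-011 replicates 1 and 3 in this respect. No PBS library carried Xist, so in 2 of the 3 treated libraries the drug and this difference cannot be told apart, and for some groups of genes below a value is added from a fit with a term for Y-linked reads, or with SN-011 replicate 2 alone or left out. Pairwise correlations of log2 CPM across genes, which are not independent replicates, were 0.986 to 0.993 among PBS libraries, 0.983 between SN-011 replicates 1 and 3, and 0.967 and 0.966 between SN-011 replicate 2 and these. The counts of SN-011 replicate 2 correlated more closely with PBS libraries, at 0.980 to 0.985.

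With the edgeR quasi-likelihood test on counts, 0 of 16646 tested genes (0%) passed a Benjamini-Hochberg adjusted p of 0.05 between SN-011 and PBS, and the smallest adjusted p was 0.147. Without SN-011 replicate 2 the same test called 519 of 17014 genes (3.05%), 129 higher (0.758%) and 390 lower (2.29%), in a comparison where the 2 treated libraries carried Xist and the PBS libraries did not. At a raw, unadjusted p below 0.05, 1905 genes (11.4%) stood out, with 960 higher (5.77%) and 945 lower (5.68%) with SN-011. The 3 treated libraries all lay above the 3 PBS libraries for 1288 genes (7.74%) and all below them for 1400 (8.41%). DESeq2's Wald test called 183 genes (1.1%), with 90 higher (0.541%) and 93 lower (0.559%), and edgeR's exact test called 127 (0.763%). No gene is therefore described below as changed on the quasi-likelihood test, and its log2 fold changes are given with their standard errors (SE) and adjusted p-values as a description of 3 against 3 libraries. The members of a gene list are read against these percentages and against the median over all tested genes, which was -0.01 on the log2 scale with 8509 of 16646 genes below 0.

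**Figure D1:**
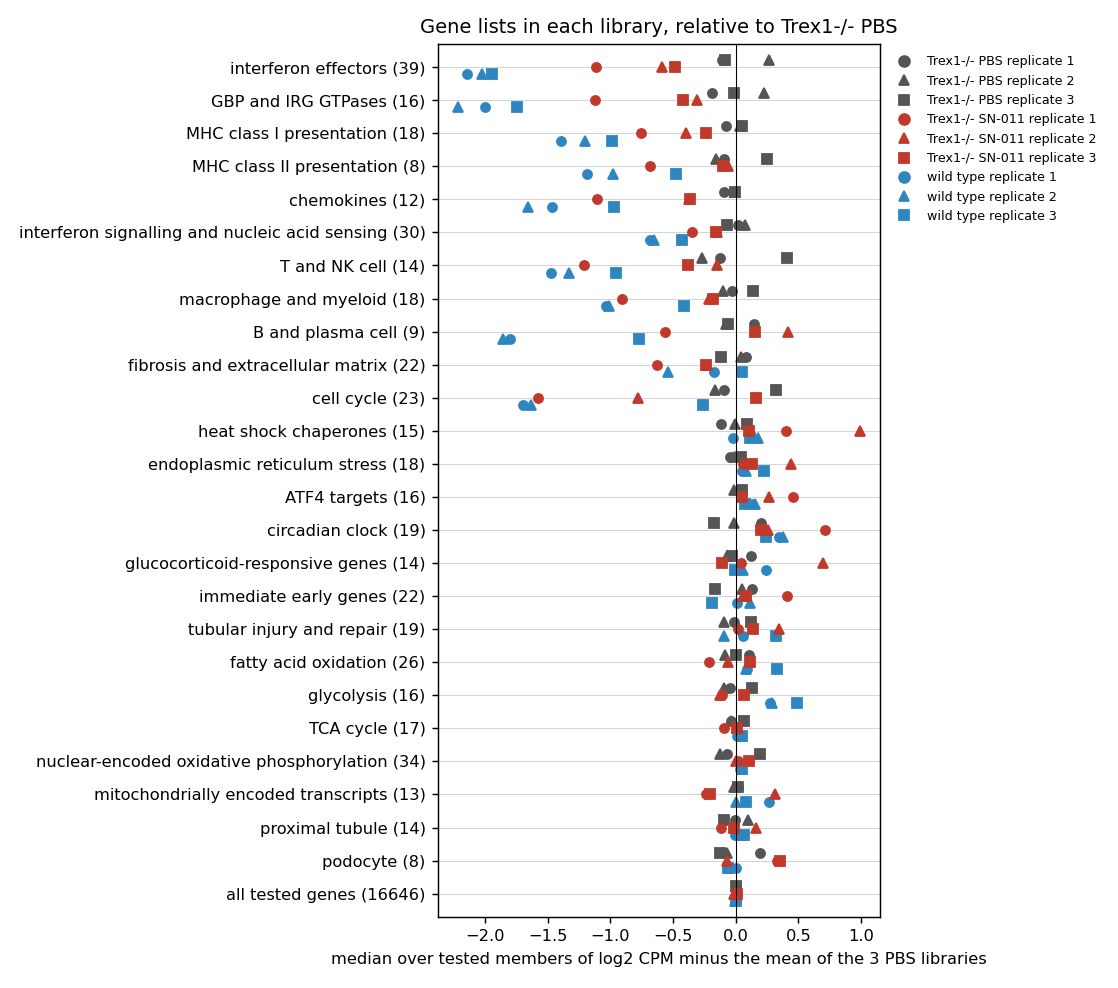
Median deviation of gene lists and of all tested genes in each library, as log2 CPM minus the mean of the 3 PBS libraries, with the number of tested members in brackets, circles, triangles and squares for replicates 1, 2 and 3, and colours for the groups. Interferon effectors sat at -1.11, -0.59 and -0.49 in SN-011 replicates 1, 2 and 3, heat shock chaperones at 0.40, 0.99 and 0.10, and all genes at 0.

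Interferon effectors, the antiviral proteins made in response to interferon, were lower with SN-011 almost throughout. Of 39 tested members, 38 had a negative log2 fold change, 38 were lower at a raw p below 0.05, and 36 had all treated libraries below all PBS libraries. None was higher at that p, and the median log2 fold change was -0.79. Ifitm3, a membrane protein that blocks viral fusion, had 126, 147 and 122 CPM in the PBS libraries and 65.1, 74.9 and 81.6 CPM under SN-011, against 48.0, 42.6 and 59.2 CPM in wild-type kidneys. The treated libraries thus lay between both other groups, with a log2 fold change of -0.83 ± 0.14 (SE) and an adjusted p of 0.153. Ifit1, which binds foreign RNA caps, had 82.5, 118 and 92.6 CPM under PBS and 31.2, 47.5 and 54.6 CPM under SN-011 (log2 fold change -1.14 ± 0.20, adjusted p 0.168). Apol9a had 31.0, 45.8 and 35.6 CPM under PBS and 14.3, 21.4 and 17.6 CPM under SN-011 (log2 fold change -1.08 ± 0.18, adjusted p 0.168). This gene has a near-identical neighbour, Apol9b, and reads could be split between them. The GTPase Mx1 had 18.9, 32.2 and 13.3 CPM under PBS and 3.23, 6.72 and 6.94 CPM under SN-011, and its fold change of -1.93 ± 0.35 was the largest among named members of the list. Isg15, a ubiquitin-like modifier, had 49.6, 76.7 and 59.4 CPM under PBS and 17.8, 30.1 and 29.2 CPM under SN-011 (-1.27 ± 0.25, adjusted p 0.203), and Ifit3, a partner of Ifit1, differed by -0.83 ± 0.17 (adjusted p 0.210). Slfn5 went the other way from the rest, at 0.03 ± 0.12, with treated libraries inside the range of PBS.

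**Figure D2:**
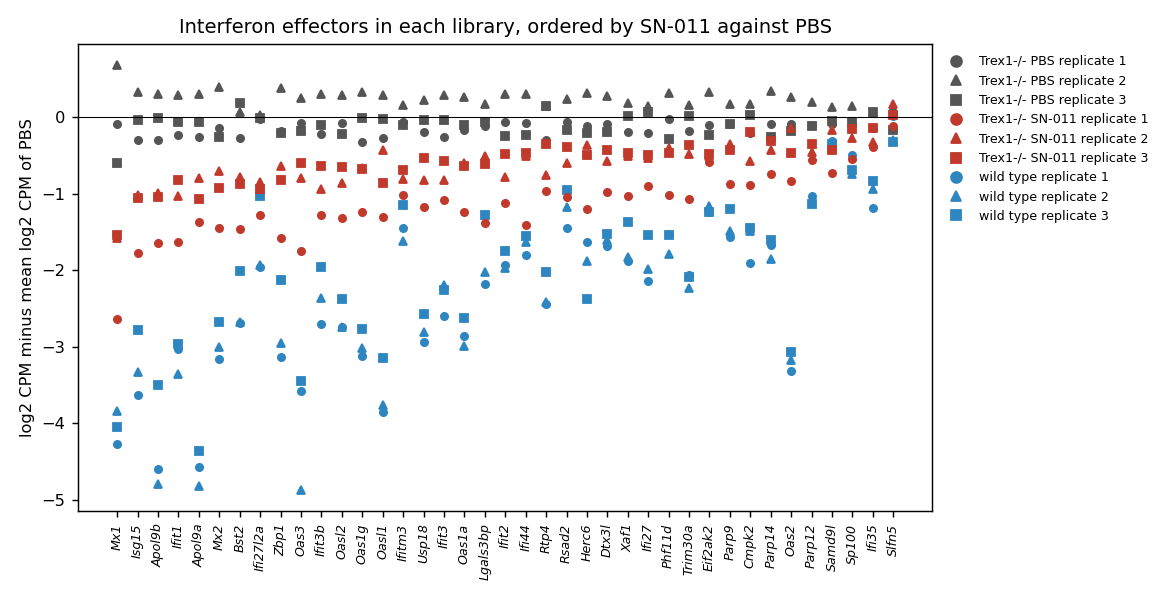
The 39 tested interferon effectors in each library as log2 CPM minus the mean log2 CPM of PBS, ordered by the difference between SN-011 and PBS. For 36 of the 39 genes the 3 red SN-011 points lie below all 3 grey PBS points, SN-011 replicate 1 is the lowest of the 3 for all 39, and the blue wild-type points are lower still for most genes.

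The promoters of the effectors with the smallest p in the list are shown with the motif that interferon-activated factors bind, searched on both strands as 2 copies of GAAA (TTTC in reverse) with any 2 bases between them, from 250 bases before to 30 after the start of each gene in RefSeq (GRCm38.p6). Of 30 effectors with a window, 15 held a match, against 3.8% of 27025 genes. Capitals mark the matches, overlapping ones running together. The windows are chr7:141010715-141010994 on the minus strand for Ifitm3, where both matches follow the annotated start, chr15:77411051-77411330 on the minus strand for Apol9a and chr19:34640639-34640918 on the plus strand for Ifit1. A match is a description of the letters and no evidence of binding.
Ifitm3: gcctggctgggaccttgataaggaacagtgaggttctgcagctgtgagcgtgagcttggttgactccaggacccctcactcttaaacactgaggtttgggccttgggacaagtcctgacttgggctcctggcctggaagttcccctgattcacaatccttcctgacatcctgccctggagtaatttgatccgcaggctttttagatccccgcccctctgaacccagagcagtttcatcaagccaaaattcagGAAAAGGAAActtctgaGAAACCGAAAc
Apol9a: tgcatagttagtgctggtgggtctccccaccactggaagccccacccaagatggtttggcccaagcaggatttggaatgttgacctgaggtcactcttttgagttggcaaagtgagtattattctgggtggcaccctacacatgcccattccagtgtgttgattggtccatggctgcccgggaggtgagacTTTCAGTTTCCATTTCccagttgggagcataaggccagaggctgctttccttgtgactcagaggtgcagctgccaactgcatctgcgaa
Ifit1: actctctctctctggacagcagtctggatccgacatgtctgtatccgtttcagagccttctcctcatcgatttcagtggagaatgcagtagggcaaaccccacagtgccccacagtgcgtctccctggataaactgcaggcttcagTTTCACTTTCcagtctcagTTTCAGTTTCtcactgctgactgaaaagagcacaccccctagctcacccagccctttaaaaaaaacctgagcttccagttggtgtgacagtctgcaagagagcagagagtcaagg

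The effectors did not move to the same extent in each treated library. Their median deviation from PBS was -1.11 in SN-011 replicate 1, -0.59 in replicate 2 and -0.49 in replicate 3, so the 2 libraries that share Xist were the lowest and the highest of the 3. With a term for Y-linked reads the median was -0.59, with SN-011 replicate 2 as the only treated library -0.58, and without it -0.83. DESeq2 called 22 of the 39 lower, and the exact test 17, where 0.433% of all genes were called lower. The quasi-likelihood test called 15 lower once SN-011 replicate 2 was left out, where 2.29% of all genes were. With SN-011 replicate 2 as the only treated library none passed, with 1 treated library in that fit.

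Genes of interferon signalling and nucleic acid sensing were less uniform. Of 30 tested members, 22 were below 0, 11 were lower and 2 higher at a raw p below 0.05, and the median was -0.16, also with a Y-linked term. Irf7, the inducible factor that amplifies the response, had 202, 272 and 222 CPM under PBS and 66.9, 118 and 110 CPM under SN-011 (log2 fold change -1.24 ± 0.25, adjusted p 0.203), against 20.8, 24.1 and 37.4 CPM in wild-type kidneys. The RNA sensor regulator Dhx58 followed at -1.13 ± 0.25 (adjusted p 0.210). Tlr3, the endosomal receptor of double-stranded RNA, had 22.3, 26.6 and 22 CPM under PBS and 13.7, 16.6 and 17.2 CPM under SN-011, a difference of -0.58 ± 0.13 that did not pass at an adjusted p of 0.210. Irf3 itself was the member furthest in the opposite direction, with 60.1, 65.3 and 63.7 CPM against 76.2, 74.8 and 71.6 CPM, a log2 fold change of 0.24 ± 0.09 (adjusted p 0.367). All treated libraries lay above all PBS libraries for this gene. The groups overlapped for the drug's target and for its upstream enzyme. Sting1 had 7.67, 7.12 and 5.35 CPM under PBS and 6.18, 6.32 and 6.35 CPM under SN-011, at -0.10 ± 0.23, and Cgas stood at -0.45 ± 0.39.

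The chemokines, the interferon-inducible GTPases and the machinery of MHC class I presentation had medians below 0 as well. Among 12 tested chemokines, 11 were below 0 with a median of -0.42, and 5 were lower and 1 higher at a raw p below 0.05. With a Y-linked term 8 were below 0 and 4 above, 3 were lower at that p, and the median was -0.52. Cxcl10, a ligand of CXCR3 on T cells, differed by -1.17 ± 0.23 and Cxcl11 by -1.73 ± 0.44, while the neutrophil attractant Cxcl1 had 1.04, 0.292 and 0.808 CPM under PBS and 1.19, 1.56 and 1.54 CPM under SN-011 (1.01 ± 0.43, adjusted p 0.410). Cx3cl1 had 151, 144 and 124 CPM under PBS and 89.9, 122 and 75.5 CPM under SN-011, at -0.54 ± 0.16. All 16 tested GTPases of the GBP and IRG families, which attack vacuoles of pathogens, were below 0, with a median of -0.59 and 12 lower at a raw p below 0.05. Their median was -0.29 with a term for Y-linked reads, where 2 members were lower at a raw p below 0.05 (5.36% of all genes were), and -0.30 with SN-011 replicate 2 as the only treated library. The closest members of these families share sequence, and their reads are uncertain in the same way as those of Apol9a. Gbp3 had 81.7, 104 and 83.9 CPM under PBS and 33.6, 46.4 and 58.5 CPM under SN-011 (-0.96 ± 0.30, adjusted p 0.289), while Tgtp2 and Gbp9 differed by -0.69 ± 0.21 and -0.64 ± 0.20. All 18 tested genes of class I presentation were below 0 as well, with a median of -0.42 and 12 lower, and with a Y-linked term the median was -0.32 and 8 were lower. H2-K1, a class I heavy chain, had 1327, 1371 and 1525 CPM under PBS and 819, 1021 and 995 CPM under SN-011 (-0.57 ± 0.13, adjusted p 0.227), and the immunoproteasome subunit Psmb8 had 34.5, 40.5 and 45.6 CPM against 19.7, 25.3 and 28.4 CPM (-0.72 ± 0.17, adjusted p 0.228). The other classical heavy chain H2-D1 differed by -0.58 ± 0.16. Class II genes had a median of -0.24 over 8 tested members, none of which passed a raw p of 0.05, and this median was 0.00 with a term for Y-linked reads. Ctss, the protease that trims the invariant chain, had the smallest p of the list, at -0.44 ± 0.23.

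Markers of T and NK cells and of macrophages lay mostly below 0 too, and those of B and plasma cells did not. All 14 tested markers of T and NK cells were below 0 with a median of -0.63, and 3 were lower at a raw p below 0.05. Their summed level was 31.1 to 49.0 CPM in the PBS libraries and 14.8 to 32.1 CPM under SN-011, so the groups overlapped. Ncr1 and Klrb1c, which define NK cells, had too few reads to test, and no marker was at 0 in all libraries. Gzmb, the protease of cytotoxic granules, had 1.58, 2.86 and 3.73 CPM under PBS and 0.453, 0.811 and 1.01 CPM under SN-011 (-1.84 ± 0.50, adjusted p 0.250). The NK receptor subunit Klrd1 differed by -1.44 ± 0.51 and Cd3g, a chain of the T cell receptor complex, by -0.82 ± 0.35. Of 18 markers of macrophages and myeloid cells, 16 were below 0 with a median of -0.44 and a summed level of 326 to 366 CPM under PBS and 190.1 to 299 CPM under SN-011. Csf1r, the receptor on which macrophages depend, had 81.4, 93.2 and 91.8 CPM under PBS and 55.5, 79.5 and 53.5 CPM under SN-011 (-0.50 ± 0.15, adjusted p 0.278), and the F4/80 antigen Adgre1 and the Fc receptor Fcgr1 differed by -0.72 ± 0.26 and -0.68 ± 0.25. The medians in SN-011 replicates 1, 2 and 3 were -1.21, -0.15 and -0.38 for T and NK cells and -0.90, -0.21 and -0.18 for macrophages, replicate 1 being lowest in both. Markers of B and plasma cells stood at 0.07 over 9 tested members, with a summed level of 210.2 to 259.6 CPM under PBS and 157 to 336 CPM under SN-011, and their median was -0.20 without SN-011 replicate 2 and 0.50 with a Y-linked term. The part of these cells in the differences of interferon, chemokine and MHC genes was not tested. With a Y-linked term the medians of T and NK cell and macrophage markers were -0.34 and -0.13, that of interferon effectors -0.59.

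Members of the cell death machinery stood less far below 0. Of 13 tested executors, 10 were below 0 with a median of -0.26 and 3 were lower at a raw p below 0.05. The median deviation was -0.51 in SN-011 replicate 1 and -0.05 and -0.15 in replicates 2 and 3, and the median log2 fold change was -0.08 with a Y-linked term and -0.04 with SN-011 replicate 2 as the only treated library. Casp1, the protease of inflammasomes, had 4.63, 3.91 and 4.41 CPM under PBS and 2.38, 2.38 and 2.67 CPM under SN-011 (-0.80 ± 0.25, adjusted p 0.289). Casp8 differed by -0.30 ± 0.11 and the inflammasome adaptor Pycard by -0.42 ± 0.17. The sensor Zbp1, an interferon effector as well, differed by -0.98 ± 0.29, and the necroptosis pore Mlkl by -0.45 ± 0.28 with overlapping groups (adjusted p 0.574).

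Outside the interferon response, heat shock chaperones were higher with SN-011. Of 15 tested members, 14 had a positive log2 fold change, 10 were higher and none lower at a raw p below 0.05, and 8 had all treated libraries above all PBS libraries. The median was 0.58. Hspa1b, the inducible HSP70 at chr17:34956436-34959238 on the minus strand of GRCm38, had 53.6, 49.4 and 48.9 CPM under PBS and 278, 549 and 94.5 CPM under SN-011, against 82.1, 73.0 and 68.7 CPM in wild-type kidneys. Every treated library lay above the 6 others, but the highest and the lowest differed from each other more than the lowest did from PBS. The log2 fold change was 2.60 ± 0.47, or 6.06-fold, with an adjusted p of 0.168. Its twin gene Hspa1a, near-identical in sequence so that reads may be split between both, had 23.8, 23.2 and 21.7 CPM against 91.8, 268 and 39.6 CPM (2.54 ± 0.54, adjusted p 0.210). Dnajb1, the HSP40 that hands clients to HSP70, had 37.9, 42.6 and 35.0 CPM under PBS and 78.4, 105 and 56.4 CPM under SN-011 (1.06 ± 0.20, adjusted p 0.168). Hsph1, an HSP110 that recycles HSP70, had 135, 140.3 and 134 CPM under PBS and 271, 468 and 204 CPM under SN-011 (1.20 ± 0.24, adjusted p 0.203). The constitutive HSP70 Hspa8 had 1261, 1515 and 1481 CPM under PBS and 2276, 3528 and 1919 CPM under SN-011 (0.86 ± 0.20, adjusted p 0.230). In wild-type kidneys Hspa1a had 38.9, 36.8 and 28.9 CPM, Dnajb1 54.4, 56.9 and 44.7 CPM, and Hspa8 1831, 2124 and 1778 CPM. The PBS libraries lay below these wild-type values. SN-011 replicate 3 lay inside the wild-type range for Dnajb1 and Hspa8, just above it for Hspa1a, and above it for Hsph1 (168, 174 and 152 CPM). The small chaperone Hspb1 had 29.5, 23.1 and 26.1 CPM under PBS and 33.9, 65.8 and 37.2 CPM under SN-011 (0.80 ± 0.22, adjusted p 0.250), and the cochaperone Bag3 differed by 0.58 ± 0.17. Replicate 2 was the highest of the treated libraries in each of the genes above, and replicate 3 the lowest in all of them but Hspb1, where replicate 1 was the lowest. Cryab, a small chaperone abundant in the medulla, was the exception in the list at -0.10 ± 0.17.

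**Figure D3:**
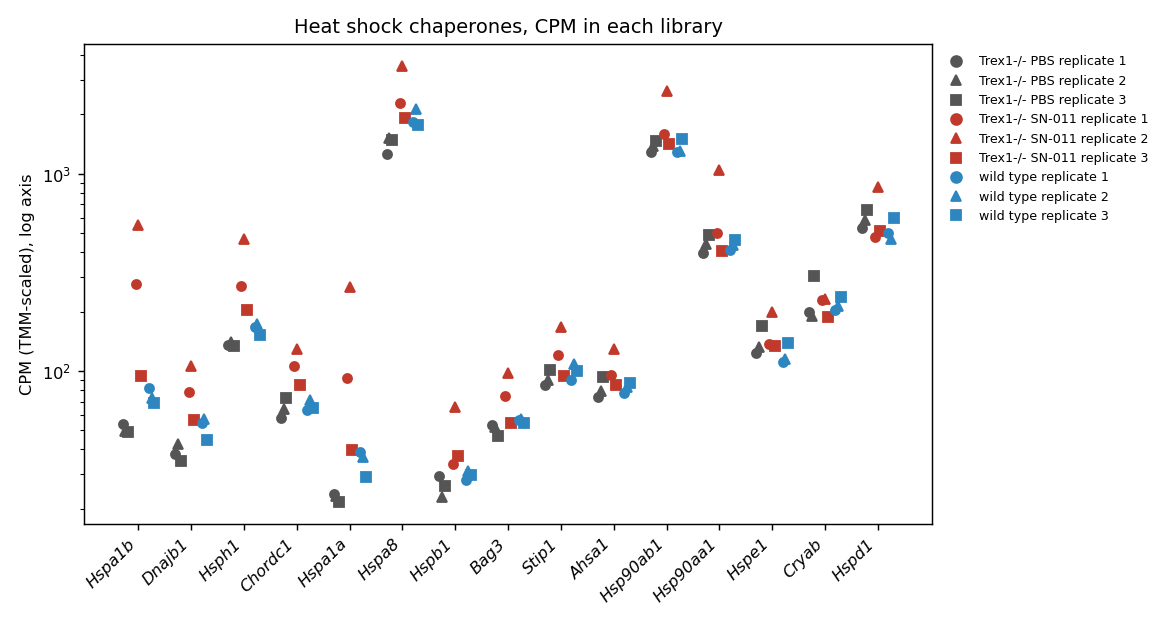
CPM of the 15 heat shock chaperones in each library on a log axis, with grey for PBS, red for SN-011 and blue for wild type. The red triangle of SN-011 replicate 2 is the highest treated point for each of the 15 genes, whereas replicates 1 and 3 lie inside the range of PBS for several of the genes on the right.

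The chaperone differences were present with and without the library that carried Y-linked reads. Their median was 1.01 with SN-011 replicate 2 as the only treated library, 0.35 without it and 0.83 with a term for Y-linked reads. Against PBS, the quasi-likelihood test called 11 of 15 chaperones higher with replicate 2 alone, where 50 of 17783 genes (0.281%) were called higher, and 6 of 15 without replicate 2, where 129 genes (0.758%) were called higher. Without replicate 2, Hspa1b was higher by 1.87 on the log2 scale (adjusted p 0.0197) and Hsph1 by 0.79 (adjusted p 0.0129). DESeq2 called 7 of the 15 higher and the exact test, which called 0.33% of all genes higher, 6 of them, and neither called one lower.

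The 2 named chaperone genes with a match to the heat shock element, which heat shock factor 1 binds, are shown with the element in capitals, searched on both strands in the same windows as GAA, TTC and GAA in turn (TTC, GAA and TTC in reverse) with any 2 bases between neighbours. Of 11 chaperones with a window 4 held a match (Hsph1, Hspe1, Hspd1 and Chordc1), against 0.622% of all genes with a window. The windows are chr5:149636286-149636565 on the minus strand for Hsph1, with its match after the annotated start, and chr9:18292017-18292296 on the plus strand for Chordc1, a cochaperone of HSP90. Chordc1 had 57.7, 64.3 and 73.3 CPM under PBS and 107, 129 and 84.9 CPM under SN-011 (0.71 ± 0.15, adjusted p 0.210). Again the letters alone are described, and no match in another gene says nothing of the factor there.
Hsph1: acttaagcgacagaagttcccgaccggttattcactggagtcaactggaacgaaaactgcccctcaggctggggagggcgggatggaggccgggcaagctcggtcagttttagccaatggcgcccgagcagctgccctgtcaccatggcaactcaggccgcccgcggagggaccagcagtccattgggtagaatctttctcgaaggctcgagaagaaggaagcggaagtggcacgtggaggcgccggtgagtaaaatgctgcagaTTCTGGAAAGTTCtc
Chordc1: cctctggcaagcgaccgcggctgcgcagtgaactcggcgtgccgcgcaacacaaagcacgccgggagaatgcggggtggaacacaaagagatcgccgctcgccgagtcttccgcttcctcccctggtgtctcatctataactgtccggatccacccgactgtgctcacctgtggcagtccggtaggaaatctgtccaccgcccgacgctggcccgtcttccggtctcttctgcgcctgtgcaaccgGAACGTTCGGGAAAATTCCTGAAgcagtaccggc

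Genes of the endoplasmic reticulum stress response lay mostly above 0, by less than the chaperones. Of 18 tested members, 14 were above 0, 7 were higher and none lower at a raw p below 0.05, and 9 had all treated libraries above PBS, with a median of 0.21. Herpud1, a component of the degradation complex of the endoplasmic reticulum, had 351, 331 and 327 CPM under PBS and 528, 636 and 483 CPM under SN-011. This was among the smallest p-values of all genes, with a log2 fold change of 0.71 ± 0.11 and an adjusted p of 0.153. Xbp1, the transcription factor activated by IRE1, had 121, 109 and 112 CPM under PBS and 193, 203 and 149 CPM under SN-011 (0.67 ± 0.13, adjusted p 0.172), and the cochaperone Dnajb9, one of its targets, 55.0, 50.4 and 51.8 CPM against 66.3, 90.2 and 65.9 CPM (0.50 ± 0.12, adjusted p 0.230). The median over the list was 0.46 with SN-011 replicate 2 alone and 0.08 without it. Targets of ATF4, the factor that answers PERK and amino acid shortage, had a median of 0.31 over 16 tested members, 11 of them above 0 and 5 higher at a raw p below 0.05. Cars, the cysteinyl-tRNA synthetase, had 17.4, 16.3 and 17.9 CPM under PBS and 25.7, 26.0 and 22.1 CPM under SN-011 (0.52 ± 0.10, adjusted p 0.168). Sesn2 differed by 0.59 ± 0.18 and Ddit3, the stress factor CHOP, by 0.41 ± 0.12, while Gdf15 was the member furthest the other way at -0.26 ± 0.26. For ATF4 targets the order of the treated libraries was another one, with median deviations of 0.45, 0.26 and 0.05 in replicates 1, 2 and 3.

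Medians of the other stress programs lay closer to 0. Targets of NRF2, which defends against oxidants, had a median of -0.05 over 17 members with 1 higher at a raw p below 0.05, and p53 targets one of -0.06 over 15 with none in either direction. The hypoxia list had a median of -0.06 over 16 members with 1 lower, and metallothioneins and metal-handling genes one of -0.13 over 8 members although 3 were higher. Among NRF2 targets the gene with the smallest p was the glutathione transferase Gsta1, with 1.16, 0.701 and 0.684 CPM under PBS and 7.20, 0.348 and 3.32 CPM under SN-011 (2.09 ± 0.82, adjusted p 0.386). Its high values were again those of SN-011 replicates 1 and 3. In the hypoxia list it was the carbonic anhydrase Car9, at -0.98 ± 0.31, among p53 targets the receptor Eda2r, at 0.76 ± 0.39, and among metal-handling genes the zinc exporter Slc30a1, at 0.31 ± 0.11, followed by the metallothionein Mt1, at 0.53 ± 0.19. Under a term for Y-linked reads the medians of NRF2, p53 and hypoxia genes each lay on the other side of 0.

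Genes of the circadian clock had a median of 0.32 over 19 tested members, with 16 above 0, and 7 were higher and 1 lower at a raw p below 0.05. DESeq2 called 6 of them higher (0.541% of all genes were) and the exact test 4 (0.33%). Without SN-011 replicate 2 the quasi-likelihood test called 6 higher and 1 lower, where 0.758% of all genes were called higher and 2.29% lower. That fit set treated libraries with Xist against PBS libraries without it. The median was 0.60 without SN-011 replicate 2, 0.27 with it as the only treated library and 0.30 with a term for Y-linked reads. Bhlhe41 and Bhlhe40, repressors of CLOCK and BMAL1, differed by 1.71 ± 0.32 and 0.95 ± 0.21 (adjusted p 0.168 and 0.210). Bhlhe40 had 86.7, 76.8 and 59.1 CPM under PBS and 191, 105 and 132 CPM under SN-011. Ciart, another repressor of the clock, had 2.50, 1.58 and 1.31 CPM under PBS and 8.50, 3.71 and 4.69 CPM under SN-011 (1.65 ± 0.42, adjusted p 0.241). Npas2, an activator that pairs with BMAL1, had 13.5, 16.6 and 18.6 CPM under PBS but 1.76, 13.9 and 4.45 CPM under SN-011 (-1.27 ± 0.53, adjusted p 0.407). The low values of Npas2 were those of replicates 1 and 3, whereas replicate 2 lay inside the range of PBS. Wild-type replicates 1 and 2, which carried Xist, had 13.4 and 20.9 CPM of Npas2, and wild-type replicate 3 had 12.9 CPM. The hour at which kidneys were taken is not given in the sources used here, and its part in these values was not tested.

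Immediate early genes, which any handling or stimulus can induce within minutes, had a median of 0.10 over 22 tested members, with 18 above 0 and 4 higher at a raw p below 0.05, and one of 0.24 without SN-011 replicate 2. Fosb had 0.670, 0.525 and 0.497 CPM under PBS and 8.78, 2.90 and 0.594 CPM under SN-011 (2.85 ± 0.79, adjusted p 0.252), and Egr2 0.853, 0.642 and 0.435 CPM against 3.06, 3.88 and 0.712 CPM (1.98 ± 0.55, adjusted p 0.256). SN-011 replicate 3 lay within the PBS range for both genes, so these differences came from replicates 1 and 2. Fosl2, a partner of JUN proteins, followed at 0.33 ± 0.13. Glucocorticoid-responsive genes had a median of 0.20 over 14 tested members, but their median deviation was 0.70 in SN-011 replicate 2 and 0.04 and -0.11 in replicates 1 and 3, and the median was -0.03 once replicate 2 was left out. Tsc22d3, the leucine zipper protein induced by glucocorticoids, had 85.9, 95.0 and 99.2 CPM under PBS and 128, 214 and 86.5 CPM under SN-011 (0.61 ± 0.26, adjusted p 0.416). Pdk4, a kinase that shuts glucose out of oxidation, had 43.8, 24.3 and 25.2 CPM against 35.8, 75.5 and 56.0 CPM (0.84 ± 0.31, adjusted p 0.354), with overlapping groups.

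Markers of tubular injury and repair had a median of 0.21 over 19 tested members, with 13 above 0 and 4 higher at a raw p below 0.05. That median was 0.09 without SN-011 replicate 2 and 0.37 with it as the only treated library. Myof, a membrane repair protein, had 52.1, 51.4 and 52.3 CPM under PBS and 73.2, 71.9 and 59.7 CPM under SN-011 (0.40 ± 0.10, adjusted p 0.241), and the epithelial keratin Krt18 differed by 0.46 ± 0.14 and Krt20 by 1.06 ± 0.41. Genes of fibrosis and extracellular matrix pointed the other way. Of 22 tested members 19 were below 0, 6 were lower and 1 higher at a raw p below 0.05, and the median was -0.43. Tgfbi, a matrix protein induced by TGF-beta, had 33.9, 30.3 and 29.6 CPM under PBS and 26.0, 23.3 and 20.1 CPM under SN-011 (-0.44 ± 0.12, adjusted p 0.250). Loxl1, which cross-links elastin, differed by -0.53 ± 0.15. Col1a2, a chain of collagen I, had 174, 173 and 147 CPM against 86.9, 127 and 121 CPM (-0.56 ± 0.20, adjusted p 0.327). With a term for Y-linked reads the median of the matrix list was -0.17. Fibroblast and mural markers, of which 8 of 11 were below 0, had a summed level of 671 to 797 CPM under PBS and 489 to 622 CPM under SN-011, and their part in the matrix values was not tested.

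All 23 tested cell cycle genes were below 0, with a median of -0.52, yet none passed a raw p of 0.05 and only 2 had treated libraries all below PBS. The treated libraries disagreed, at -1.57, -0.78 and 0.16 in replicates 1, 2 and 3, and the median was -0.20 with a Y-linked term. The replication helicase subunits Mcm2, Mcm5 and Mcm3 had the smallest p of the list, at -0.42 ± 0.19, -0.73 ± 0.38 and -0.63 ± 0.34. The sum of the list was 408 to 468 CPM under PBS and 309, 331 and 468 CPM in SN-011 replicates 1, 2 and 3. The wild-type libraries differed among themselves as well, with medians of -1.70, -1.63 and -0.27 relative to PBS in replicates 1, 2 and 3. Their order was another one. In wild type both libraries with Xist were low, whereas under SN-011 the libraries with Xist were the lowest and the highest.

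Most metabolic programs of the tubule had medians close to 0 in the comparison of group means. Median log2 fold changes were -0.04 for fatty acid oxidation (26 genes), -0.04 for glycolysis (16), 0.06 for gluconeogenesis (11), -0.03 for the TCA cycle (17), 0.03 for nuclear-encoded oxidative phosphorylation (34) and -0.02 for mitochondrially encoded transcripts (13). With a Y-linked term the medians of fatty acid oxidation, gluconeogenesis and mitochondrially encoded transcripts lay on the other side of 0, at 0.18, -0.02 and 0.13. At a raw p below 0.05, fatty acid oxidation held 1 higher gene, Pdk4, glycolysis held 1 lower gene, gluconeogenesis held 1 of each, and the other lists held none. Cholesterol synthesis and uptake stood at -0.05 over 23 genes with 1 higher and 1 lower, namely Stard4, a sterol carrier, at 0.45 ± 0.15 and Dhcr7, the last enzyme of cholesterol synthesis, at -0.50 ± 0.16. Fatty acid synthesis stood at -0.14 over 16 genes and amino acid metabolism at -0.11 over 25, with no gene at that p in either. Without SN-011 replicate 2, 0.758% of all genes were called higher and 2.29% lower. In that fit 3 genes of amino acid metabolism were called higher and 3 lower. Fatty acid oxidation held 1 called higher and 1 lower, and so did cholesterol synthesis and uptake. Gluconeogenesis held 1 called higher, mitochondrially encoded transcripts 1 called lower, and fatty acid synthesis none. Single calls in lists of 11 to 26 genes are not read as a result about these lists. Cytochrome P450 genes, conjugating enzymes and organic ion transporters had medians of -0.06, -0.11 and -0.13 over 25, 23 and 24 genes, and 1 lower P450 gene, 4 higher conjugating enzymes and 1 higher transporter had a raw p below 0.05. The treated libraries went opposite ways in 2 of these lists. Organic ion transporters had a median of -0.35 without SN-011 replicate 2 and 0.25 with it as the only treated library, and P450 genes had -0.17 and 0.17. With a Y-linked term the medians of transporters and P450 genes were 0.01 and 0.12. Without replicate 2 the quasi-likelihood test called 6 of 25 P450 genes and 5 of 24 transporters lower (2.29% of all genes were), and 1 transporter higher, and of 23 conjugating enzymes it called 3 higher and 2 lower. Mitochondrially encoded transcripts split likewise, at -0.23 and 0.33. Cytosolic ribosomal proteins had a median of 0.14 over 40 genes, 0.22 without replicate 2 and -0.0450 with it as the only treated library. The gluconeogenic enzyme Fbp2 had 5.91, 4.50 and 6.65 CPM under PBS and 15.8, 4.46 and 14.2 CPM under SN-011 (1.02 ± 0.37, adjusted p 0.343). Its high values were those of SN-011 replicates 1 and 3, and replicate 2 lay just under the PBS libraries, while wild-type kidneys had 27.1 to 30.4 CPM. The lower gene of that list was the glutamine transporter Slc38a3, at -0.36 ± 0.11. Markers of proximal tubule, thick limb and distal tubule, and collecting duct had medians of 0.01, 0.07 and 0.07, and podocyte markers 0.21, which was 0.32 without SN-011 replicate 2 and -0.06 with it as the only treated library.

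Of the 10 genes with the smallest p-values on the higher side, Palld was a member of the actin and focal adhesion list, Herpud1 of the endoplasmic reticulum stress list, and the others of no list. Palld, an actin-bundling protein of stress fibres, had 62.9, 67.1 and 59.5 CPM under PBS and 106, 106 and 92.1 CPM under SN-011, so that it differed by 0.68 ± 0.09 on the log2 scale (adjusted p 0.147). The gene spans chr8:61511433-61902690 on the minus strand of GRCm38. Serpinb8, an intracellular protease inhibitor, had 10.4, 12.1 and 14.7 CPM under PBS and 25.6, 29.7 and 24.6 CPM under SN-011 (1.10 ± 0.15, adjusted p 0.147). In both genes the treated libraries lay close to each other and lay above the wild-type libraries too, which held 69.8 to 76.2 CPM of Palld and 14.5 to 18.8 CPM of Serpinb8. Clk1, a kinase of splicing factors, had 92.8, 88.9 and 90.2 CPM under PBS and 124, 121 and 129 CPM under SN-011 (0.46 ± 0.07, adjusted p 0.153). Tra2a, a splicing regulator, differed by 0.54 ± 0.10. The mitochondrial ribosomal RNA mt-Rnr2 had 627, 618 and 729.8 CPM under PBS and 1005, 1256 and 1159 CPM under SN-011 (0.79 ± 0.14, adjusted p 0.168), in libraries made from polyA+ RNA. Fgd3, an exchange factor for CDC42, had 14.1, 15.2 and 9.88 CPM against 37.7, 43.6 and 21.5 CPM (1.39 ± 0.25). The 10 genes so named on the higher side further included Herpud1, the gene model Gm7536 at 1.79 ± 0.29, the calcium channel regulator Cbarp at 0.72 ± 0.12, and the membrane protein Ano3 at 1.20 ± 0.21. Ano3 had 3.11, 3.15 and 3.05 CPM under PBS, 5.67, 6.14 and 9.68 CPM under SN-011 and 16.3 to 19.3 CPM in wild-type kidneys.

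On the lower side, Pde9a, which hydrolyses cGMP, led the list with 34.5, 32.6 and 37.9 CPM under PBS and 19.0, 20.5 and 23.6 CPM under SN-011 (-0.74 ± 0.10, adjusted p 0.147). Its gene lies at chr17:31386210-31476310 on the plus strand. Wild-type kidneys had 37.8 to 39.7 CPM, so both groups without the drug exceeded the treated one. The same order was found for the tight junction protein Cldn3, with 26.0, 22.5 and 29.1 CPM under PBS, 14.7, 16.6 and 15.5 CPM under SN-011 and 23 to 24.4 CPM in wild type (-0.73 ± 0.11, adjusted p 0.153), and for Fpgs, the enzyme that retains folates in cells, with 106, 97.3 and 97.5 CPM, 57.6, 67.9 and 74.2 CPM, and 94.2 to 112 CPM (-0.59 ± 0.11, adjusted p 0.168). The DNA helicase Blm had 2.86, 2.63 and 2.98 CPM under PBS and 0.737, 0.927 and 1.07 CPM under SN-011 (-1.63 ± 0.26, adjusted p 0.153). Greb1l differed by -0.97 ± 0.17 and the gene model Gm6658 by -1.79 ± 0.26. The remaining 4 of the 10 lower genes were the interferon effectors Ifitm3, Apol9a, Ifit1 and Mx1. Palld, Serpinb8, Pde9a, Cldn3 and Fpgs kept log2 fold changes of 0.73, 1.21, -0.77, -0.66 and -0.65 with a term for Y-linked reads.

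The spread among the treated libraries exceeded that of either other group. The median standard deviation (SD) of log2 CPM over 3 libraries was 0.211 with SN-011, 0.150 with PBS and 0.150 in wild type, and the SD was over 1 for 523 genes (3.14%), 112 genes (0.673%) and 262 genes (1.57%). Outside chromosomes X and Y the median with SN-011 was 0.211 as well, and among the 10057 genes with a mean of at least 10 CPM the medians were 0.153, 0.113 and 0.103. The SN-011 and wild-type groups each mixed libraries with Xist and libraries with Y-linked reads, whereas all PBS libraries carried Y-linked reads. Leaving out genes of X and Y does not remove this imbalance, and its part in the spread was not tested. SN-011 replicate 2 was the library farthest from the middle one for 46.2% of tested genes, and replicates 1 and 3 for 26.1% and 27.6%. Among the 523 genes with an SD over 1 the share of replicate 2 was 58.9% (308 genes). Within the lists, the median SD of SN-011 libraries was 0.95 for cell cycle genes, 0.67 for cytochrome P450 genes, 0.64 for organic ion transporters and 0.45 for heat shock chaperones, where PBS libraries had 0.29, 0.27, 0.15 and 0.14 and wild-type libraries 0.77, 0.52, 0.43 and 0.12. Nuclear-encoded oxidative phosphorylation had 0.12 with SN-011 and 0.17 with PBS.

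**Figure D4:**
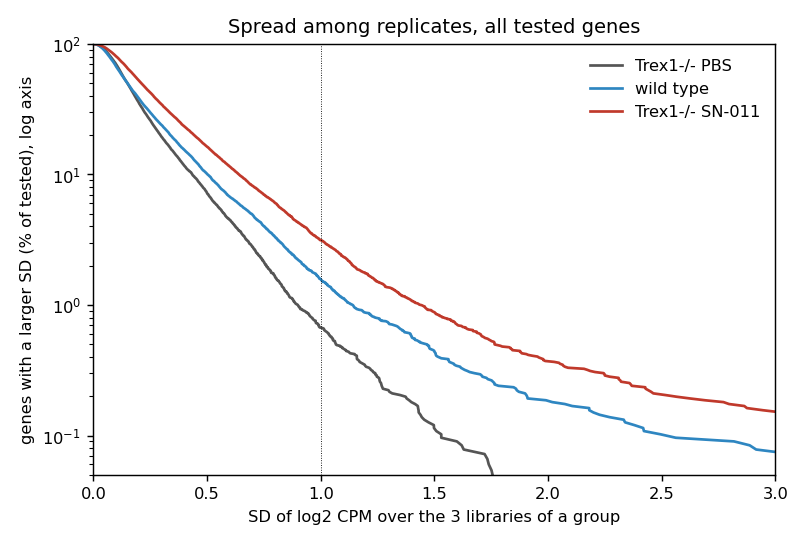
Percentage of the 16646 tested genes (log axis) whose SD of log2 CPM over the 3 libraries of a group exceeds the value on the horizontal axis, with a dotted line at an SD of 1. At that line the curves stand at 3.14% for SN-011, 1.57% for wild type and 0.673% for PBS.

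The 10 genes of widest spread among treated libraries separated replicate 2 from replicates 1 and 3. Cyp2j13, a P450 epoxygenase, had 108, 169 and 114 CPM under PBS and 0.113, 282 and 0.119 CPM under SN-011, and the organic anion transporter Slco1a1 had 30.8, 62.4 and 20.4 CPM under PBS and 0.113, 198 and 0.119 CPM under SN-011. Acsm3, a medium-chain acyl-CoA synthetase, had 106, 207 and 143 CPM under PBS and 1.98, 408 and 1.25 CPM under SN-011. In each of these 3 genes replicate 2 was above the PBS libraries and replicates 1 and 3 far below them. For Acsm3 the wild-type libraries split in the same way, with 3.02 and 2.03 CPM in replicates 1 and 2, which carried Xist, and 300.4 CPM in replicate 3. The glucuronosyltransferase Ugt1a2 went the opposite way, with 303, 0.348 and 229.8 CPM in the treated libraries, 18.5, 0.409 and 1.62 CPM under PBS and 264, 220.0 and 5.03 CPM in wild type. Cyp2j13, Slco1a1 and Acsm3 were on the list of genes higher in male mouse kidney, whose median deviation was -3.94, 0.85 and -3.52 in SN-011 replicates 1, 2 and 3, and whose group median of -0.41 thus describes no library. Serpina6, the plasma carrier of corticosteroids, was also lowest in replicate 2 among the treated libraries, at 8.39, 0.174 and 336 CPM under SN-011 and no more than 1.46 CPM in any other library. Gm6300, Pzp, Cyp2a4, Sec14l3 and Ugt2b37 completed the 10. Cyp2a4 had 10.8, 303 and 1.13 CPM under SN-011, but 144, 132 and 170 CPM in wild-type replicates 1, 2 and 3. Sec14l3 had 31.8, 16.8 and 10.5 CPM in wild type, so for neither gene were the wild-type libraries with Xist far below the other.

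**Figure D5:**
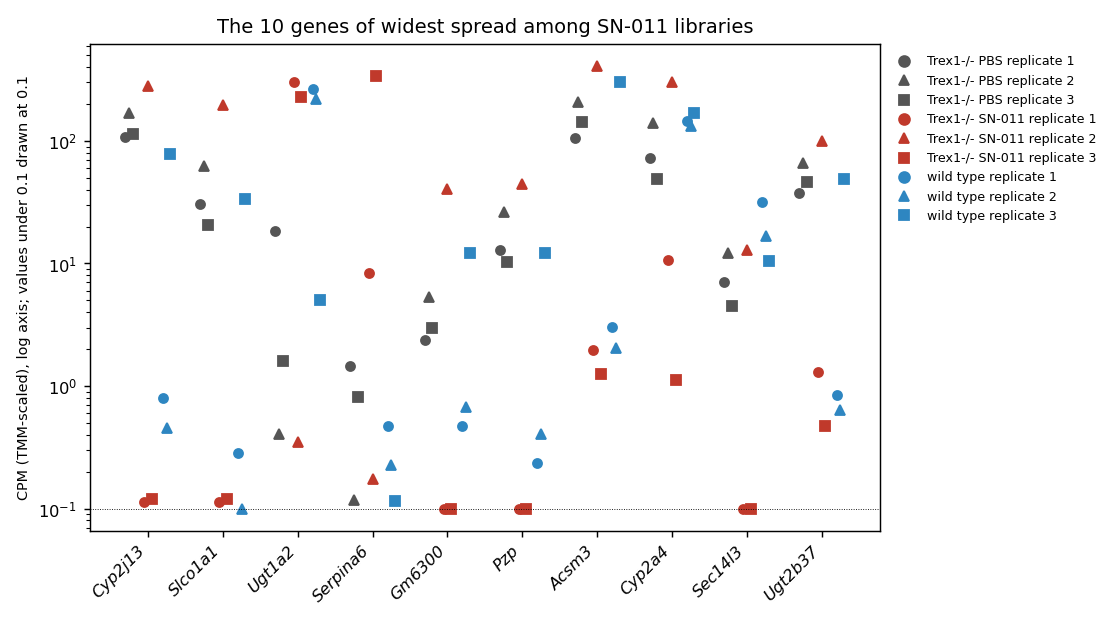
CPM (log axis, values under 0.1 drawn at 0.1) of the 10 genes with the largest SD of log2 CPM over the SN-011 libraries outside chromosomes X and Y, with grey for PBS, red for SN-011 and blue for wild type. Replicates 1 and 3 of SN-011 lie far below replicate 2 for 8 of the 10 genes and above it for Ugt1a2 and Serpina6.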

How the data were processed

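Kidney polyA+ RNA of 9 libraries was sequenced as paired reads of 150 nt. The authors trimmed reads with Trimmomatic, aligned them with HISAT2 to mm10 and counted uniquely mapped pairs per gene with featureCounts, and the deposited files hold these raw counts, 1 file per library, with no normalization. Tool versions and the strand setting of the counting are not given in the sources used here. Of 54532 gene identifiers, 54495 matched GENCODE vM21 (GRCm38).

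Libraries were grouped by sample titles. Genes passing edgeR's expression filter (minimum count 10, minimum total 15) were scaled by TMM and fitted with edgeR 4.0.16 (R 4.3.3) quasi-likelihood F tests, with all 9 libraries in 1 fit and the contrast SN-011 minus PBS. P-values were adjusted by Benjamini-Hochberg over all tested genes at 0.05, and SE is the log2 fold change divided by the root of F. CPM are TMM-scaled, except those of Xist and of the Y-linked sums, which are scaled to total counts only. Log2 CPM for spread used a prior count of 2. The study named edgeR's negative binomial test, given here as the exact test. The fit was checked on simulated counts. The library totals of 16118813 to 21928965 pairs limit the precision of genes near 1 CPM.

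A library was given a Y-linked term where its Y-linked genes summed to over 10 CPM, and the wild-type libraries entered the estimate of that term. With 1 treated library in a fit, it was assumed to vary like the other groups. Alternatives were other scaling and filters, DESeq2 1.42.0, limma-voom (limma 3.58.1), the exact test, the 6 libraries alone, a replicate block, the Y-linked term and each library left out. The fit of only libraries with Y-linked reads was chosen after seeing the data.

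Named genes were those the study names, the 10 highest-ranked in each direction with a mean of at least 1 CPM and no overlap between groups, the 3 of smallest p in each list with the member furthest the other way, and the 10 of widest spread. Not every list gene so chosen is named in the text, where the others enter by the counts and median of their list, and 1 gene so chosen is not reported here. Hspa1a, Hspa8, Hspb1, Bag3 and Chordc1 were named outside the rule, after their values were seen. Members and lists, drawn from general knowledge except for the study's M7core, were chosen with earlier results of these data known. Trex1, the deleted gene, had 0 reads in all 9 libraries, so it could not check the labels. Promoter windows came from RefSeq (GRCm38.p6).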

Additional observations from a re-analysis of the deposited data

How the results depend on the processing

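The count of genes called between SN-011 and PBS was 0 with DESeq2 size factors, upper-quartile factors, a mean of at least 50 counts, limma-voom, the 6 libraries alone and a Y-linked term, where the smallest adjusted p was 0.0590. With a replicate block it was 0 as well, at a smallest adjusted p of 0.0619. Deviations of same-numbered PBS and SN-011 libraries correlated at 0.198, 0.242 and 0.0981, not all above the 0.1 asked of pairs, though each library correlated best with its own number. It was 127 with no filter beyond 1 read, 183 with DESeq2's Wald test, 127 with edgeR's exact test, 51 with SN-011 replicate 2 as the only treated library, 519 with SN-011 libraries without Y-linked reads only, and 107 with only libraries with Y-linked reads in the fit. Leaving out 1 library gave 0 to 519, namely 519 without SN-011 replicate 2, 22 without SN-011 replicate 3, 1 without PBS replicate 2 and 0 otherwise. The cause of these differences was not tested. Genes at a raw p below 0.05 numbered 1276 to 3378. Of the 22 alternatives, leaving out SN-011 replicate 2 and using only SN-011 libraries without Y-linked reads are the same fit. Not every alternative tested every gene, and 2030 pairs of gene and alternative were compared. Among 93 genes given with a fold change, 87 kept their direction in every alternative that tested them, and 57 passed the threshold in at least 1. The exceptions were near 0 or split by library: Mlkl at 0.0214 with SN-011 replicate 2 alone and 0.0215 with Y-linked libraries only, Sting1 at 0.15 with the Y-linked term and -0.23 to 0.0155 with 1 library left out, Slfn5 at -0.0469 without SN-011 replicate 2 and -0.0469 to 0.097 with 1 library left out, Cryab at 0.0142 with the Y-linked term, 0.0221 with SN-011 replicate 2 alone, 0.0226 with Y-linked libraries only and -0.21 to 0.16 with 1 library left out, and Fbp2 and Gsta1 at -0.32 and -1.24 both with SN-011 replicate 2 alone and with Y-linked libraries only. Of 48 list medians, 25 lay on the other side of 0 in at least 1 alternative. Those of interferon effectors (-0.88 to -0.56), class I presentation (-0.55 to -0.32), heat shock chaperones (0.35 to 1.01) and endoplasmic reticulum stress (0.08 to 0.46) did not. Depth limits genes near 1 CPM, and 3 libraries per group limit all others.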

Other observations

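A set of genes, selected after their values were seen, set SN-011 replicates 1 and 3 apart from all 7 other libraries, the 2 wild-type libraries with Xist among them. With 1 CPM added to each value, 22 genes were more than 2-fold below every other library in both and 4 were more than 2-fold above. Akr1c14, an aldo-keto reductase of steroid metabolism, had 4.14 and 3.74 CPM in these libraries and 72.0 to 262 CPM elsewhere. The organic anion transporter Slc22a7 had 6.40 and 8.49 CPM, against 129.9 to 373 CPM. Mfsd2a, a carrier of lysophospholipids, had 1.81 and 0.297 CPM, against 18.5 to 27.3 CPM, and the fatty acid transporter Cd36 53 and 61 CPM, against 133 to 459 CPM. The growth hormone receptor Ghr had 326 and 249 CPM, against 662 to 833 CPM. On the higher side, Gc, the vitamin D binding protein, had 627 and 313 CPM and no more than 117 CPM elsewhere. The same count for wild-type replicates 1 and 2 was 3 genes below and 22 above the 7 others. No PBS library carried Xist, so the drug and other properties that these 2 libraries share cannot be told apart here.

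Of the lists not described so far, actin and focal adhesion genes had a median of 0.06 on the log2 scale over 20 members, with 3 higher and 1 lower at a raw p below 0.05. Palld, which had the smallest p of the whole comparison, was among them, and it was the 1 member called higher by DESeq2 and by the exact test. Endothelial markers had a median of -0.09 over 10. Markers of perirenal fat had a median of -0.21 over 7 members, which was -1.48 with SN-011 replicate 2 as the only treated library and 0.13 without it, and they summed to 108.9 to 217 CPM under PBS and 119 to 170.1 CPM under SN-011. Genes higher in female mouse kidney stood at 0.61 over 7 members, with deviations of 1.12, -0.61 and 1.05 in SN-011 replicates 1, 2 and 3. M7core, a gene set defined by the study, had a median of -0.41 over 156 tested members, 134 of them below 0.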
